A study of Homo sapiens with 9 samples.

Results

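The ERK feedback genes are a set of 10 genes that the RAS–RAF–MEK–ERK cascade switches on: the dual-specificity phosphatases *DUSP4*, *DUSP5* and *DUSP6*, the Sprouty genes *SPRY1*, *SPRY2* and *SPRY4*, the Sprouty-related genes *SPRED1* and *SPRED2*, and the ETS factors *ETV4* and *ETV5*. They were taken by symbol, 10 of the 60662 genes in the count table, and the family was selected on these same libraries after the fall of *DUSP6* in *DYRK1A* knockout (KO) cells was known. The fall of *DUSP6* against wild type is therefore given as a description with no test, and the other members are not independent of it. All 10 were found once by symbol, 8 passed the filter on low counts in every comparison, and *DUSP4* and *SPRY4* did not.

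RNA-seq was performed on SET2, an established megakaryoblastic leukemia line that carries a *JAK2* mutation and was labelled as acute myeloid leukemia arising after a myeloproliferative neoplasm. Untreated cells formed 3 groups: unedited WT SET2 (n = 3 libraries), *DYRK1A* KO clone 11H1 (n = 3) and *DYRK1A* KO clone 14B5 (n = 3). DYRK1A is a kinase encoded on chromosome 21, and both clones were made with Cas9 protein and a single guide RNA, sorted as single cells and kept for out-of-frame insertions or deletions only. The libraries of a clone share 1 founder cell, no clone of an unedited cell was sequenced, and nothing in the labels says that replicates were separate cultures, so p values measure the spread between libraries of these cells only.

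ERK is the last kinase of a cascade that runs from growth factor and cytokine receptors through RAS, RAF and MEK. Active ERK drives transcription of its own brakes, which is why these RNAs are widely read as a record of recent ERK output. The phosphatases remove phosphate from ERK itself, Sprouty and SPRED proteins act upstream at the level of RAS and RAF, and ETV4 and ETV5 are transcription factors of the PEA3 group that carry the ERK signal to other genes. In megakaryocytic cells the cascade lies downstream of the thrombopoietin receptor and JAK2. No protein or phosphorylation was measured in these libraries, and a bulk library cannot tell fewer cells with an RNA from less of that RNA per cell.

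Library totals ran from 32347779 to 60272245 expected counts (reads assigned to genes by RSEM, with reads that match several genes divided among them). Levels are CPM, that is, counts divided by the library total after TMM scaling, and a count of 3, taken as the limit that a count of 0 allows, was 0.0502 to 0.0914 CPM depending on the library, for counting error only. The knocked-out gene was still read in every library: *DYRK1A* stood at 197, 196 and 219 CPM in WT, 188, 191 and 192 CPM in 11H1, and 192, 183 and 174 CPM in 14B5. Every clone library lay below every WT library, by little, with adjusted p = 0.131 in 11H1 and 0.0278 in 14B5 (edgeR quasi-likelihood test). RNA from an edited gene is read with its small insertions or deletions, so this level does not check the knockout. The 8 megakaryocyte markers summed to 1732–1753 CPM in WT, 1363–1431 CPM in 11H1 and 1291–1323 CPM in 14B5, led by *ITGA2B* in every group. *PF4* was at 0 in every clone library, but it was already low in WT, at 25, 22 and 23 counts (0.509, 0.461 and 0.559 CPM). Of the megakaryocyte markers, 7 of 8 were lower than WT in 11H1 and 6 of 8 in 14B5, against 32.8% and 28.7% of all genes tested. *TAL1* rose in both clones (log2 FC 0.46, adjusted p = 2.26e-06, and 0.34, adjusted p = 0.000112). *GATA1* was not called in 14B5 (log2 FC 0.03, adjusted p = 0.611). The members below moved alongside a change in most of these lineage markers, and its part in them was not tested. Markers of T cells, B cells, fibroblasts and epithelium summed to 2.14–2.52 CPM in WT, 4.33–6.45 CPM in 11H1 and 1.15–1.17 CPM in 14B5.

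Most of the ERK feedback genes were lower in both clones. Outside *DUSP6*, 6 of the 7 tested members fell in 11H1 versus WT and the same 6 fell in 14B5 versus WT, namely *ETV4*, *ETV5*, *DUSP5*, *SPRY1*, *SPRY2* and *SPRED1*, and none rose. The ETV factors made the largest falls in 11H1, the phosphatases fell further in 14B5 than in 11H1, *SPRY2* fell further in 11H1, and *SPRED2* passed the test in neither clone. A fall was common in these clones, since 32.8% of the 16675 genes tested were called lower in 11H1 and 28.7% of 16537 in 14B5, with 31.8% and 24.9% called higher. Of the 16339 genes tested in both comparisons, 19.2% were called lower in both clones. The median log2 FC of the 7 members was −0.51 in 11H1 and −0.52 in 14B5, against −0.0066 and −0.014 for all genes tested. Both comparisons use the same 3 WT libraries, so the clones are not independent of each other in this respect.

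**Figure D1:**
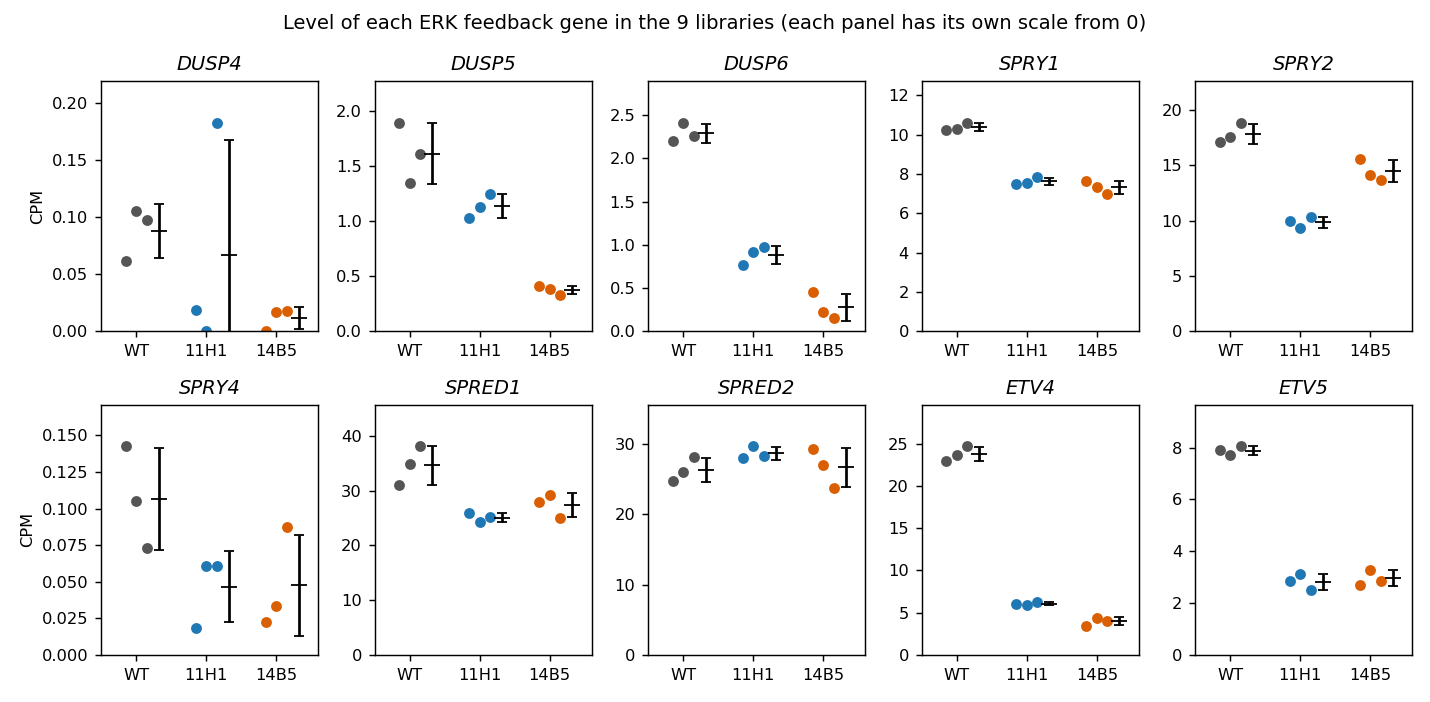
Level of each gene in CPM (linear axes from 0, a separate scale for each gene) in the WT, 11H1 and 14B5 libraries, where a point is a library and the bar beside each group is the mean ± SD (n = 3), drawn no lower than 0. For *ETV4*, *ETV5*, *DUSP5*, *DUSP6*, *SPRY1*, *SPRY2* and *SPRED1* all 6 clone libraries sit below all 3 WT libraries, *SPRED2* overlaps, and *DUSP4* and *SPRY4* are near 0 throughout.

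*DUSP6* (ENSG00000139318.8, chromosome 12 of GRCh38, 89347232–89353271, minus strand) encodes a cytoplasmic phosphatase with high selectivity for ERK. It was counted 108, 115 and 93 times in WT, 42, 30 and 32 times in 11H1, and 20, 13 and 9 times in 14B5. In CPM these were 2.20, 2.41 and 2.26 in WT, 0.770, 0.914 and 0.973 in 11H1, and 0.452, 0.218 and 0.157 in 14B5. The 3 groups did not overlap, and 14B5 replicate 1 stood above the other two of its clone. The level averaged 2.29 ± 0.110 CPM in WT, 0.886 ± 0.104 CPM in 11H1 and 0.275 ± 0.156 CPM in 14B5 (SD, n = 3), and the fitted level was 38.4% of WT in 11H1 (log2 FC −1.38, SE 0.167) and 11.5% of WT in 14B5 (log2 FC −3.12, SE 0.279). These are the values by which the family was chosen, and with 9 to 20 reads in 14B5 they rest on few counts.

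*DUSP4* (ENSG00000120875.9, chromosome 8, 29333064–29350668, minus strand), a nuclear phosphatase of the same family, was barely read. It had 3, 5 and 4 counts in WT, 1, 0 and 6 in 11H1, and 0, 1 and 1 in 14B5. The highest library was one of 11H1, and the counts are at or near the limit of 3, so no fold is given and a difference was not detectable in 11H1 at this depth. Without the filter on low counts *DUSP4* had an adjusted p of 0.0471 in 14B5 versus WT and 0.65 in 11H1 versus WT.

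*DUSP5* (ENSG00000138166.6, chromosome 10, 110497838–110511544, plus strand) encodes another nuclear phosphatase, which holds ERK in the nucleus. It stood at 1.89, 1.34 and 1.60 CPM in WT, 1.03, 1.13 and 1.25 CPM in 11H1, and 0.406, 0.385 and 0.331 CPM in 14B5. The groups were separate, though the lowest WT library was only slightly above the highest 11H1 library. *DUSP5* fell 4.36-fold in 14B5 (log2 FC −2.13, SE 0.21, adjusted p = 1.72e-05). In 11H1 the fall was small (log2 FC −0.51, SE 0.191, adjusted p = 0.0322), and it lost the call in 5 of 13 alternatives, among them the DESeq2 Wald test (adjusted p = 0.0795) and the fits without WT replicate 1 (log2 FC −0.38, adjusted p = 0.133), without 11H1 replicate 1 (adjusted p = 0.115) or without 11H1 replicate 2 (adjusted p = 0.0636).

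*SPRY1* and *SPRY2* encode Sprouty proteins, which are phosphorylated on receptor activation and then hold back RAS and RAF. SPRY2 is also a known binding partner and substrate of DYRK1A. *SPRY1* (ENSG00000164056.11) lies on chromosome 4 (123396795–123403760, plus strand) and *SPRY2* (ENSG00000136158.12) on chromosome 13 (80335976–80340951, minus strand). RefSeq promoter windows (GRCh38.p14) were matched by symbol for 6 of the 10 members: *DUSP6*, *SPRY1*, *SPRY2*, *SPRY4*, *SPRED1* and *SPRED2*. The 250 bases before the RefSeq start are shown for *SPRY1* (chr4:123396545-123396794, plus strand) and *SPRY2* (chr13:80341127-80341376, minus strand). *SPRY2* was chosen as the member whose order between the clones ran opposite to the other members that differed between them, and *SPRY1* is its paralog. Neither window holds an annotated exon of its own gene, and exons of other genes were not checked. The windows are read 5′ to 3′ with the core of an ETS site (GGAA, or TTCC for the other strand) in capitals.
SPRY1: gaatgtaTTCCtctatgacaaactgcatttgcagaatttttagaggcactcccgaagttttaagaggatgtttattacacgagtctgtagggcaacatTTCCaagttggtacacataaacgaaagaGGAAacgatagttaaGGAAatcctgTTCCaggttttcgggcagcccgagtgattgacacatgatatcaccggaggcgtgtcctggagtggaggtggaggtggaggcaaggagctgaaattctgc
SPRY2: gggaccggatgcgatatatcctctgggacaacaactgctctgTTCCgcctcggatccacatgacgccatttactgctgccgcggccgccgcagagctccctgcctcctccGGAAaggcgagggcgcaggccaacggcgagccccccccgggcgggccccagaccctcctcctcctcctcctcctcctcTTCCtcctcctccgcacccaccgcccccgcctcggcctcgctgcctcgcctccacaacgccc
The *SPRY1* window held 5 matches to this core and the *SPRY2* window 3, where 92.7% of 35116 RefSeq promoters held at least 1 and the median was 3. *DUSP6* had 6 matches, *SPRED2* 4, *SPRED1* 3 and *SPRY4* 2. However, exons of the gene itself in GENCODE v29 cover all 250 bases of the *DUSP6* and *SPRED1* windows, 170 of *SPRY4* and 38 of *SPRED2*. The *DUSP6* window lies inside the gene as given above. The *SPRY1* window adjoins its gene, whereas the *SPRY2* window stops short of its gene, which begins at 80340951 on the minus strand. The bases checked after the RefSeq start of *SPRY2* were in no GENCODE v29 transcript of that gene. The windows differed in base composition, with 45.6% G and C and 8 CpG in *SPRY1* and 70.4% and 23 CpG in *SPRY2*, against a median of 58.0% over all promoters. Longer letters had been searched first on both strands: CCGGAAG for ETS factors (in 8.52% of promoters), TGAATGAA for the repressor CIC (1.40%), TGACGTCA for CREB (1.65%), TGACTCA for AP-1 (4.20%) and TTCNNNGAA for STAT factors (6.57%). None of the 6 windows held any of them, which says only that these letters are not in these 250 bases.

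*SPRY1* stood at 10.2, 10.3 and 10.6 CPM in WT, 7.48, 7.55 and 7.82 CPM in 11H1, and 7.65, 7.31 and 6.96 CPM in 14B5. The WT libraries were tight and clearly above both clones, which overlapped each other. *SPRY1* fell in 11H1 (log2 FC −0.44, SE 0.0742, adjusted p = 0.000253) and in 14B5 (log2 FC −0.52, SE 0.0752, adjusted p = 0.000239).

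*SPRY2* stood at 17.1, 17.6 and 18.8 CPM in WT, 9.94, 9.29 and 10.3 CPM in 11H1, and 15.6, 14.1 and 13.7 CPM in 14B5. The 3 groups did not overlap, and 11H1 was the lowest. *SPRY2* fell to 55.6% of WT in 11H1 (log2 FC −0.85, SE 0.0728, adjusted p = 1.02e-06) and to 80.1% of WT in 14B5 (log2 FC −0.32, SE 0.0709, adjusted p = 0.00361).

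*SPRY4* (ENSG00000187678.9, chromosome 5, 142310427–142326455, minus strand), a Sprouty gene often used as an ERK readout, had 7, 5 and 3 counts in WT, 1, 2 and 2 in 11H1, and 1, 2 and 5 in 14B5. Each group but 11H1 had a library at or above 3 counts and no library exceeded 7, so no fold is given. Without the filter its adjusted p was 0.258 in 11H1 and 0.292 in 14B5.

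The SPRED proteins bring neurofibromin, which switches RAS off, to the membrane. *SPRED1* (ENSG00000166068.13, chromosome 15, 38252326–38357249, plus strand) stood at 31.0, 34.9 and 38.1 CPM in WT, 25.8, 24.3 and 25.2 CPM in 11H1, and 28.0, 29.3 and 24.9 CPM in 14B5. WT was above both clones in every library, with the widest spread of the 3 groups. *SPRED1* fell in 11H1 (log2 FC −0.46, SE 0.0719, adjusted p = 0.000149) and in 14B5 (log2 FC −0.35, SE 0.0828, adjusted p = 0.00488).

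*SPRED2* (ENSG00000198369.10, chromosome 2, 65310851–65432637, minus strand) was the member that did not follow. It stood at 24.8, 26.0 and 28.2 CPM in WT, 27.9, 29.6 and 28.4 CPM in 11H1, and 29.3, 27.0 and 23.8 CPM in 14B5, with all 3 groups overlapping. Its log2 FC was 0.13 in 11H1 (95% interval −0.000106 to 0.26, adjusted p = 0.0739) and 0.0036 in 14B5 (95% interval −0.176 to 0.183, adjusted p = 0.974). A fall like that of *SPRED1* lay outside both intervals. Without WT replicate 3 the 11H1 value passed the threshold as a rise (adjusted p = 0.013).

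ETV4 and ETV5 switch on genes of growth and migration when ERK is active. *ETV4* (ENSG00000175832.13, chromosome 17, 43527844–43579620, minus strand) was counted 1129, 1128 and 1015 times in WT, 330, 192 and 204 times in 11H1, and 153, 263 and 232 times in 14B5, or 23.0, 23.7 and 24.7 CPM, 6.05, 5.85 and 6.21 CPM, and 3.45, 4.40 and 4.04 CPM. The 3 groups were far apart relative to their spread, with means of 23.8 ± 0.858, 6.04 ± 0.179 and 3.96 ± 0.477 CPM (SD, n = 3). *ETV4* fell 3.91-fold in 11H1 (log2 FC −1.97, SE 0.0696, adjusted p = 8.17e-10) and 6.02-fold in 14B5 (log2 FC −2.59, SE 0.0883, adjusted p = 1.07e-08).

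*ETV5* (ENSG00000244405.8, chromosome 3, 186046308–186110318, minus strand), its close paralog, stood at 7.91, 7.70 and 8.05 CPM in WT, 2.86, 3.11 and 2.49 CPM in 11H1, and 2.71, 3.30 and 2.86 CPM in 14B5. Both clones lay well below WT and overlapped each other. *ETV5* fell 2.78-fold in 11H1 (log2 FC −1.47, SE 0.104, adjusted p = 1.96e-07) and 2.69-fold in 14B5 (log2 FC −1.43, SE 0.102, adjusted p = 1.7e-06).

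With the clones pooled as KO (n = 6 libraries), 5 of the 7 members other than *DUSP6* fell, while 17.7% of 17080 genes were called lower. *ETV4* fell 4.77-fold (log2 FC −2.25, SE 0.176, adjusted p = 1.13e-05) and *ETV5* 2.73-fold (log2 FC −1.45, SE 0.108, adjusted p = 8.14e-06). *SPRY1* (log2 FC −0.47, adjusted p = 0.00099), *SPRED1* (log2 FC −0.40, adjusted p = 0.00526) and *SPRY2* (log2 FC −0.55, adjusted p = 0.0283) made smaller falls, and *SPRY2* lost the call without any 1 of the WT libraries (adjusted p = 0.0639, 0.0861 and 0.104 without WT replicates 1, 2 and 3).

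*DUSP5* did not pass in the pooled comparison (log2 FC −1.12, SE 0.434, adjusted p = 0.075), where the spread of a KO group made of different clones enters the error. It passed with limma-voom (adjusted p = 0.0238), in a fit that kept the clones as separate groups (log2 FC −1.31, adjusted p = 1.78e-05) and without 11H1 replicate 3 (adjusted p = 0.0461). *SPRED2* had a pooled log2 FC of 0.07 (95% interval −0.108 to 0.252, adjusted p = 0.529), and *DUSP6* stood at a log2 FC of −2.02 (SE 0.479), given with no test. All 6 KO libraries lay below all 3 WT libraries for 6 of the 7 members other than *DUSP6*, and for 20.3% of the 17080 genes.

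**Figure D2:**
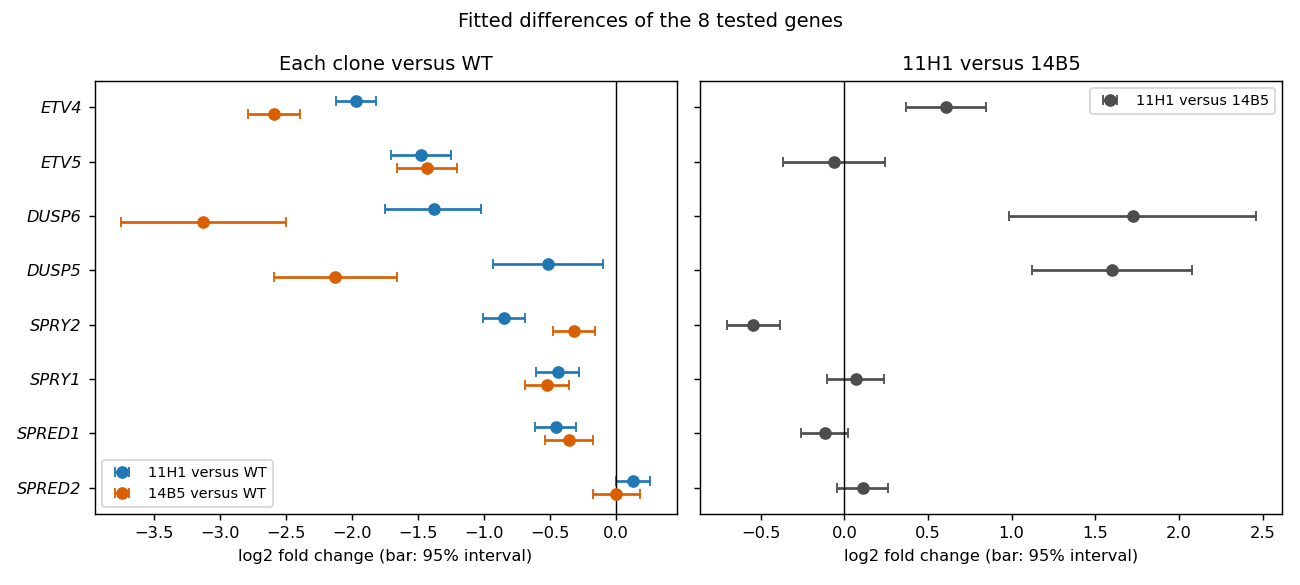
Fitted log2 fold change of each tested gene with its 95% interval for 11H1 versus WT and 14B5 versus WT (left) and for 11H1 versus 14B5 (right), where the vertical line is 0 and *DUSP6* against WT is a description. The left panel shows *DUSP5*, *DUSP6* and *ETV4* further left in 14B5 and *SPRY2* further left in 11H1, and on the right *SPRY1*, *SPRED1*, *SPRED2* and *ETV5* have intervals that include 0.

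Whether the clones differed from each other was tested directly, in a contrast that leaves WT out. The family was chosen on the fall of *DUSP6* against WT and not on this contrast. The same clone libraries entered that fall, and the comparisons were chosen with earlier results known, so the contrast is not free of selection. Of the 8 members tested, 4 differed between 11H1 and 14B5, at a background of 63.7% of 16352 genes called in either direction, so the count itself does not set the members apart. *DUSP5* was 3.03-fold higher in 11H1 than in 14B5 (log2 FC 1.60, SE 0.221, adjusted p = 5.74e-05) and *DUSP6* 3.3-fold higher (log2 FC 1.72, SE 0.339, adjusted p = 0.000807). *ETV4* was 1.52-fold higher in 11H1 (log2 FC 0.61, SE 0.109, adjusted p = 0.000427). *SPRY2* went the other way, 1.46-fold lower in 11H1 (log2 FC −0.54, SE 0.0724, adjusted p = 4.2e-05).

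These 4 differences kept their direction and their call in all 13 alternatives, or 12 for *DUSP6*, which did not reach 10 counts in every library. The size for *DUSP6* depended most on single libraries, from 1.44 without 14B5 replicate 3 to 2.21 without 14B5 replicate 1. The other members did not pass: *SPRY1* had a log2 FC of 0.07 (95% interval −0.101 to 0.235), *SPRED1* −0.12 (−0.258 to 0.0218), *SPRED2* 0.11 (−0.0415 to 0.262) and *ETV5* −0.06 (−0.365 to 0.242). *SPRED1* passed in 2 of 13 alternatives and *SPRED2* in 1 of 13. Thus *ETV4* differed between the clones and a difference was not seen for its paralog *ETV5*, though the gap of one was not tested against that of the other.

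Levels of different genes were set side by side only per kilobase of exon (CPM per kb, over the union of GENCODE v29 exons). In WT cells *ETV4* was the highest member at 6.59 ± 0.237 CPM per kb, followed by *SPRY2* at 5.87 ± 0.300, *SPRED2* at 5.10 ± 0.336, *SPRED1* at 4.19 ± 0.430, *SPRY1* at 2.62 ± 0.0507 and *ETV5* at 1.36 ± 0.0305 (SD, n = 3). *DUSP5* at 0.617 ± 0.105 and *DUSP6* at 0.494 ± 0.0238 CPM per kb came next and overlapped in their libraries, as did *SPRY4* and *DUSP4* at the bottom. The WT libraries of all other neighbours in this order were separate.

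In both clones *ETV4* dropped from the first place to the fifth, at 1.67 ± 0.0497 CPM per kb in 11H1 and 1.10 ± 0.132 CPM per kb in 14B5, below *SPRY1*, and *SPRED2* became the highest member. *SPRED2* stood at 5.56 CPM per kb in 11H1, well above *SPRY2* at 3.24 ± 0.170, whereas in 14B5 *SPRED2* at 5.18 ± 0.533 and *SPRY2* at 4.76 ± 0.321 CPM per kb overlapped. *SPRY2* and *SPRED1* overlapped in 11H1, as did *ETV5* and *DUSP5*. The order was the same with the longest annotated transcript in place of the union of exons.

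Each member was also set beside its chromosomal neighbours, the other tested genes within 5000000 bases. For *ETV4* the median log2 FC of these neighbours was 0.13 in 11H1 (205 genes) and −0.032 in 14B5 (203 genes), against −1.97 and −2.59 for the gene itself. The neighbours of *ETV5* stood at 0.035 and 0.060, and those of *DUSP5* at −0.045 and 0.153. The genes around *DUSP6* had negative medians in both clones, −0.375 in 11H1 and −0.158 in 14B5 over 27 genes. The genes around *SPRY4*, which is on 5q, had medians of −0.346 (98 genes) and −0.393 (97 genes).

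**Figure D3:**
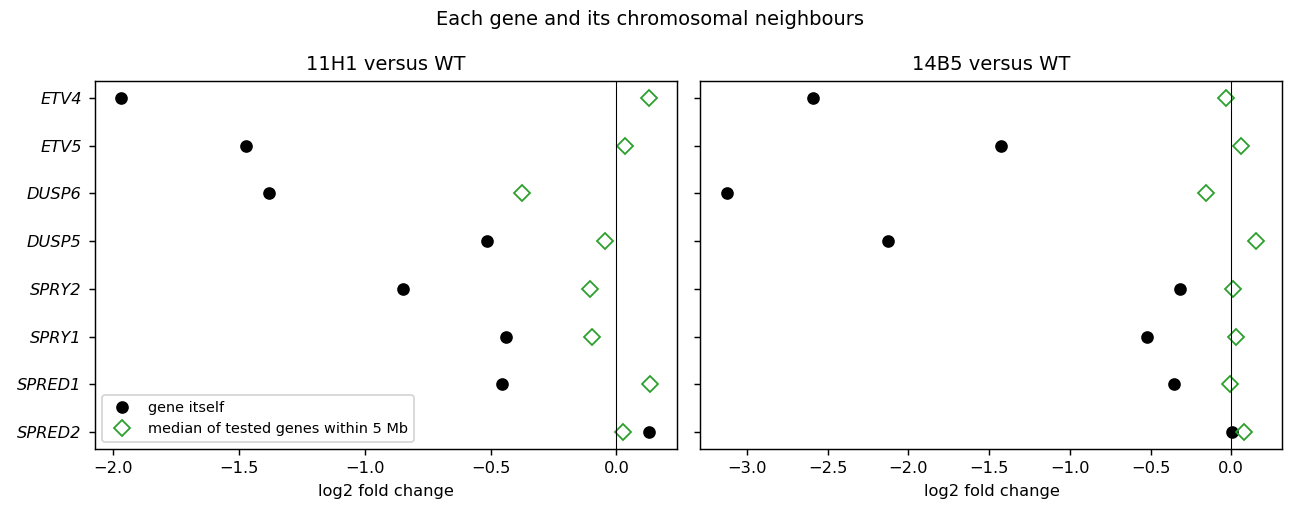
Log2 fold change of each tested gene (filled circles) and the median log2 fold change of the other tested genes within 5 Mb (open diamonds), for 11H1 versus WT (left) and 14B5 versus WT (right), with a line at 0. Neighbour medians lie between −0.375 (around *DUSP6* in 11H1) and 0.153 (around *DUSP5* in 14B5), while *ETV4* reaches −1.97 and −2.59.

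Other genes of the pathway moved in both directions. The counts for each list below stand beside 31.8% of all genes tested called higher and 32.8% called lower in 11H1. In 14B5 these shares were 24.9% and 28.7%. Of 20 tested genes of the cascade itself (adaptors, RAS, RAF, MEK, ERK and RSK), 3 rose and 7 fell in 11H1 and 6 rose and 2 fell in 14B5, with medians of −0.042 and 0.061. Among the cascade genes past the threshold in both clones were *MAP2K1*, the gene for MEK1 (log2 FC −0.62 in 11H1 and −0.30 in 14B5), and *GAB2*, a docking adaptor (−0.22 and −0.35).

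Other brakes on RAS, such as NF1 and the RAS GTPase-activating proteins, also moved in both directions. Of 13 tested, 4 rose and 1 fell in 11H1, and 3 rose and 4 fell in 14B5. *DAB2IP*, which encodes a RAS GTPase-activating protein, fell in both clones (log2 FC −1.21 and −1.24), and *LRIG1*, a negative regulator of receptor tyrosine kinases, rose in both (1.18 and 1.45). Among 6 tested phosphatases for mitogen-activated kinases outside the family, 3 rose and 2 fell in 11H1 and 1 rose and 2 fell in 14B5. *DUSP2* rose in both clones (0.54 and 0.58) and *DUSP16*, which acts mainly on JNK and p38, fell in both (−0.71 and −1.16).

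Immediate early genes, which respond to ERK within minutes but also to other pathways, were called in both directions. Of 12 tested, 7 rose and 1 fell in 11H1 (median log2 FC 0.38), and 5 rose and 1 fell in 14B5 (median 0.082). The 8 calls in 11H1 became 5 without WT replicate 2, WT replicate 3 or 11H1 replicate 2. The gene that fell in both was *EGR1*, a classic target of ELK1 and SRF downstream of ERK, at 9.60, 11.4 and 14.4 CPM in WT, 8.25, 7.37 and 11.1 CPM in 11H1 and 7.09, 6.02 and 5.48 CPM in 14B5 (log2 FC −0.40, adjusted p = 0.0421, and −0.95, adjusted p = 0.000392). WT and 11H1 overlapped and 14B5 was below both. *IER3* (log2 FC 1.11 and 1.67), *ZFP36* (0.77 and 0.87) and *JUNB* (0.50 and 0.72) rose in both clones.

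Of other genes used as ERK output readouts, all 8 tested in 11H1 passed, 3 higher and 5 lower. All 7 tested in 14B5 passed, 2 higher and 5 lower. Over all genes tested, 64.6% passed in 11H1 and 53.5% in 14B5. *PHLDA1*, *EPHA2*, *EPHA4* and *ETV1* averaged under 1 CPM, and with at least 10 counts in every library 5 genes passed in 11H1. *MAFF*, a small MAF transcription factor, fell from 13.3, 14.9 and 15.3 CPM in WT to 3.91, 4.05 and 3.44 CPM in 11H1 and 3.97, 3.31 and 3.25 CPM in 14B5 (log2 FC −1.92, adjusted p = 9.68e-09, and −2.07, adjusted p = 1.1e-07). The cytokine gene *LIF* (−0.83 and −1.69) and *CCND1*, the gene for cyclin D1 (−0.24 and −0.44), also fell in both. *BYSL* rose slightly (0.20 and 0.18). Chosen after their values were seen, *ETV1*, the remaining PEA3 factor, fell in both clones (−1.76 and −1.99) at under 1 CPM, and *PHLDA1* rose in both (1.57 and 1.19).

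Among 9 transcription factors that read ERK activity, 7 rose and 2 fell in 11H1 and 4 rose and 3 fell in 14B5. *CIC*, the repressor that keeps *ETV4*, *ETV5* and *DUSP6* low until ERK relieves it, was at 122, 132 and 135 CPM in WT, 214, 199 and 196 CPM in 11H1 and 154, 160 and 151 CPM in 14B5. Its groups did not overlap, and it rose in both clones (log2 FC 0.66, adjusted p = 7.6e-07, and 0.24, adjusted p = 0.00267). *SRF* rose in both (0.38 and 0.41), *ELK3* fell in both (−0.52 and −0.28), and *ETS1* rose in 11H1 and fell in 14B5 (0.23 and −0.83).

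Of 9 tested receptors that feed the cascade, 3 rose and 5 fell in 11H1, and 3 rose and 6 fell in 14B5. *KIT*, the stem cell factor receptor, was at 398, 404 and 481 CPM in WT, 231, 223 and 224 CPM in 11H1 and 326, 315 and 288 CPM in 14B5 (log2 FC −0.91, adjusted p = 2.71e-07, and −0.48, adjusted p = 0.000491). *KIT* was lower in 11H1 than in 14B5 (log2 FC −0.45, adjusted p = 1.12e-05), as were 32.1% of all genes tested. *EPOR*, the erythropoietin receptor, rose in both clones (1.05 and 0.93), *FGFR1* rose in both (0.22 and 0.96), and *PDGFRB* fell in both (−0.74 and −1.08).

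**Figure D4:**
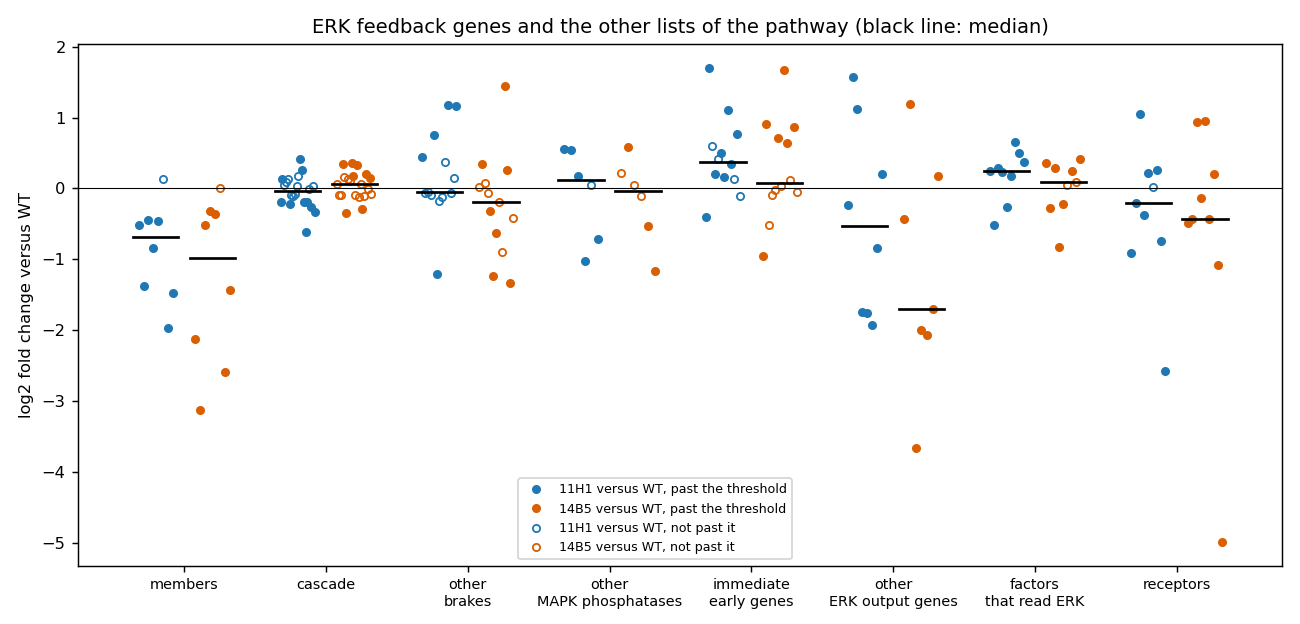
Log2 fold change versus WT of every tested gene in the ERK feedback family (*DUSP6* included) and in 7 other lists of the pathway, for 11H1 and 14B5, where filled points passed the threshold of an adjusted p of 0.05 and black lines are list medians. The feedback genes lie at or below 0 except *SPRED2*, whereas the cascade centers near 0 (medians −0.042 and 0.061) and the immediate early genes lie mostly above it in 11H1 (median 0.38).

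The pattern of *DUSP6* over the 9 libraries was compared with that of 13580 genes (Pearson's r of log2(CPM + 0.5), a description, since the libraries share the 3 groups). Among the nearest were *RNF144A-AS1* (r = 0.993, an antisense gene whose reads need strand to be told from those of its partner), *SH3RF2* (0.991), *KLF8* (0.991) and *GAPT* (0.991), and 5.64% of genes reached 0.9 or more. *GAPT* ran in the same order, with means of 38.6, 19.6 and 10.4 CPM in WT, 11H1 and 14B5. Within the family, *ETV4* (0.938), *DUSP5* (0.932) and *SPRY1* (0.931) were above that level, and *ETV5* (0.836) and *SPRED1* (0.677) below it. *SPRY2* (0.405) and *SPRED2* (0.022) had the lowest values. The family was chosen after the fall of *DUSP6* in these libraries was known, so its r values are not independent of that choice.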

How the data were processed

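Bulk RNA-seq libraries of SET2 WT cells and *DYRK1A* KO clones 11H1 and 14B5 (n = 3 each) were sequenced as paired ends. The labels name a SMARTER kit, whereas the paper's methods describe a stranded TruSeq mRNA kit. The deposited values are RSEM expected counts for each gene, which the authors did not scale for depth or length. The submitters' processing notes list GRCh38, STAR 2.7.9a, Picard and RSEM, whose version is not given in the sources used here. Of the values, 5.73% to 6.64% per library were not whole.

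Of 60754 rows, 92 spike-ins (all at 0) were left out, and 60662 genes were kept. Expected counts were rounded and tested with edgeR 4.0.16 in R 4.3.3 (TMM, filterByExpr, quasi-likelihood F test, Benjamini-Hochberg over all genes tested, threshold 0.05). The SE is the log2 FC divided by the root of F. Comparisons were each clone versus WT, both clones (KO) versus WT, and clone against clone. All 6 KO libraries were used, since the paper pools 5 and names none as left out. Gene positions and exon lengths came from GENCODE v29, and promoters from RefSeq.

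The members, the lists and their comparisons were chosen with earlier results of these data known. Named genes were all members with *DYRK1A*, and, of each other list, up to 4 genes past the threshold in both clones that had the largest mean absolute log2 FC, provided their level averaged 1 CPM or more. The 5 genes most like *DUSP6* were taken by Pearson's r. Some genes that these rules select are left out of the text. The search for the 4-base ETS core was added after the longer motifs gave no match.

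As alternatives, the size factors and then the Wald test of DESeq2 1.42.0 were used, as were limma-voom (limma 3.58.1), no filter, at least 10 counts in every library, 1 fit of the 3 groups, the replicate number as a block, and each library left out. Replicate pairs differed by 4.04 to 36.1 times sampling noise per gene, and none was a copy. The main fit, both DESeq2 alternatives, limma-voom and the replicate block were tested on simulated counts, and the other steps were not.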

Additional observations from a re-analysis of the deposited data

Results flagged for a closer look

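The clones differed from each other in 4 of the 8 tested members when 11H1 was compared with 14B5 directly (edgeR quasi-likelihood test). Of all 16352 genes tested, 63.7% were called in this contrast, so the count does not set the members apart. *DUSP6* differed by a log2 FC of 1.72 (adjusted p = 0.000807) and *DUSP5* by 1.60 (adjusted p = 5.74e-05), both higher in 11H1, and in each all 3 libraries of 11H1 were above all 3 of 14B5. *ETV4* differed by 0.61 in the same direction (adjusted p = 0.000427). *SPRY2* differed by −0.54, lower in 11H1 (adjusted p = 4.2e-05). With 1 clone of each, the edit and the founder cell cannot be told apart.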

How the results depend on the processing

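Of 437 values of single members under alternative settings, 414 kept their direction and their side of the threshold, 9 lost the call, 7 gained it and 7 changed sign, and of 385 counts over the lists 373 stayed within 1.5 times. Each change of sign was in a value near 0 that had no call. *SPRED2* in 14B5 versus WT went from 0.0036 to −0.0013 with limma-voom and −0.015 with at least 10 counts in every library, and ran from −0.049 to 0.085 with 1 library left out. *ETV5* in 11H1 versus 14B5 ran from −0.133 to 0.020 with 1 library left out. The number of genes called in KO versus WT was 5471 and became 10245 in 1 fit of the 3 groups, in which the clones no longer share 1 mean. The counts of all genes called and of members called otherwise stayed within 1.5 times. The 12 list counts that moved were, in 11H1 versus WT, the immediate early genes (8 to 5 without WT replicate 2, WT replicate 3 or 11H1 replicate 2) and the other ERK output genes (8 to 5 with at least 10 counts), in KO the cascade (3 to 11), the other brakes (2 to 8) and the other phosphatases (2 to 6), all 3 in 1 fit of the 3 groups, and between the clones the other phosphatases (4 to 2 under 4 settings) and the other ERK output genes (2 to 1 with at least 10 counts).

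Same-numbered libraries did not deviate together (r from −0.236 to 0.0992 over 9 pairs, against −0.202 to 0.211 over 18 pairs of different number), so the numbers give no pairing. With the replicate number as a block, 10710 of 16675 genes were called in 11H1 versus WT and 7529 of 16537 in 14B5 versus WT. In the same setting 3937 of 17080 were called with the clones pooled and 10099 of 16352 between the clones. Members called against WT, with *DUSP6* left out, were 5, 6 and 4 of 7 in 11H1, 14B5 and KO. Between the clones 4 of 8 members were called, with *DUSP6* included. *DUSP5* in 11H1 (adjusted p = 0.0511) and *SPRY2* in KO (adjusted p = 0.0717) lost the call with the block. Depth limits *DUSP4* and *SPRY4*, which had at most 7 counts in any library.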
